A study of Mus musculus with 12 samples.

Results

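Striatal projection neuron genes were followed in the brains of mice given chronic unpredictable mild stress (CUMS), krill oil, both or neither. The 9 genes (Drd1, Tac1, Isl1, Drd2, Adora2a, Gpr6, Ppp1r1b, Rarb and Syndig1l) were taken by symbol from the gene table, which lists 55385 genes, and all 9 were among the 21393 genes that entered the tests. RNA sequencing was done on 12 libraries, each from the brain of 1 wild-type male C57/BL6J mouse bought at 8 weeks of age. Each of the 4 groups had 3 mice, and the methods of the study describe whole brains taken after perfusion with saline. C_W mice were unstressed and received water, C_O mice were unstressed and were given 200 mg/kg of krill oil each day over 5 weeks, MS_W mice had 4 weeks of CUMS with water, and MS_O mice had 4 weeks of CUMS and the same krill oil. The oil was compared with water and not with another oil, and libraries are written as the group followed by the number of the mouse. Levels are given as FPKM, which counts sequenced fragments per kilobase of a gene's transcript relative to all mapped fragments of the library, so they are per length and can be compared between genes. Comparisons asked whether CUMS changed these levels on water (C_W vs MS_W) and on oil (C_O vs MS_O), and whether oil changed them without stress (C_W vs C_O) and under it (MS_W vs MS_O).

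Projection neurons are the main cell type of the striatum, and they receive dopamine from the midbrain and glutamate from the cortex and thalamus. They fall into a direct pathway class, which carries the D1 dopamine receptor and makes substance P, and an indirect pathway class, which carries the D2 dopamine receptor and the adenosine receptor of Adora2a and makes enkephalin. Both classes use DARPP-32, encoded by Ppp1r1b, to relay dopamine and adenosine signals through cAMP. In a bulk sample of the brain, fewer cells of a type and less RNA per cell cannot be told apart.

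The libraries held between 50912906 (C_O72) and 75678721 (C_W1) estimated counts. C_O72 and MS_W95 stood apart. Their log2(FPKM + 1) correlated at r = 0.97 with each other and at 0.92 to 0.937 with the other 10 libraries, which correlated at 0.959 or more among themselves (21393 genes). C_O72 and MS_W95 held hindbrain markers (the sum of 9 genes was an FPKM of 71.7 and 57.3) and cerebellum markers (302 and 1036 over 8 genes). In the other 10 libraries, which carry the same tissue label, the hindbrain sum was at most 0.444 with all 9 genes under 0.5, and the cerebellar genes Gabra6, Pcp2, Cbln3 and Fat2 were each under 0.5. Each comparison was repeated on these other 10 libraries alone, where C_O and MS_W have 2 mice each.

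RefSeq start regions (build GRCm38.p6, the assembly that mm10 names) were listed for 6 of the 9 genes, Drd1, Drd2, Gpr6, Tac1, Rarb and Isl1. The 250 bases before each start were searched on both strands for a TATA box (TATAAA), a cAMP response element (TGACGTCA), its shorter core TGACG, which every full element also holds, a GC box (GGGCGG) and a retinoic acid response element (GGTTCA and AGTTCA with 5 bases between them). The Drd1, Drd2 and Gpr6 sequences are shown because these receptors mark the direct and the indirect class, and the Rarb stretch because of its element. Capitals mark a match to one of these letter strings, and each sequence reads 5′ to 3′ on the strand of its gene.
Drd1, chr13:54055706-54055908, minus strand: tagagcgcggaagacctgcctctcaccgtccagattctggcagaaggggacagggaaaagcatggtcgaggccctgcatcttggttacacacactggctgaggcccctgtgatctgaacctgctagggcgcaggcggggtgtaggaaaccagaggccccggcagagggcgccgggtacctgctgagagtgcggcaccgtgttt
Drd2, chr9:49340153-49340402, plus strand: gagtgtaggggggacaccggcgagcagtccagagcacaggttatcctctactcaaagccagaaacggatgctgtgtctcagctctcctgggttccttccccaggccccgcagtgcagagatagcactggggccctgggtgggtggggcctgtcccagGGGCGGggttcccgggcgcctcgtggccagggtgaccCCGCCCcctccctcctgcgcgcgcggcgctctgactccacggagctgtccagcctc
Gpr6, chr10:41072291-41072540, minus strand: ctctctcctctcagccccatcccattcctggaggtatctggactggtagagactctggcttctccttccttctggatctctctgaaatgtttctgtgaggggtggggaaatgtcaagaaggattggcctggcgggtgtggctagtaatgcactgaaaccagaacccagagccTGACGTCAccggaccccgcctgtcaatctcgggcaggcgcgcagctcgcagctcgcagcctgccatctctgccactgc
Rarb, chr14:16575506-16575535, minus strand: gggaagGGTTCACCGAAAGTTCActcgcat

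The printed Drd1 stretch, which lies directly before the deposited gene, held none of these strings, and a second Drd1 start within the gene had a GC box before it. The Drd2 region, which ends 224 bases before the deposited gene, held a GC box on each strand, a string found in 32.7% of the 32851 listed start regions. Gpr6 held the full cAMP response element, 78 bases before its start, which 1.55% of the regions hold. Tac1 and Isl1 each held the core TGACG at 2 places, against 17.8% of all regions with at least 1. Tac1 also held a GC box, 107 bases before its start. The retinoic acid response element of Rarb began 53 bases before its RefSeq start, inside the deposited gene model, which begins farther upstream, and its letters occur in 2 of the 32851 regions (0.00609%). The string searched is that of the known Rarb element itself, so the match in Rarb was fixed by the choice of letters. No start region of these 6 genes held a TATA box, which 12.4% of all regions hold. Such matches describe the letters of these windows only.

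Drd1 (ENSMUSG00000021478, chr13:54051183-54055705, minus strand), the dopamine receptor of the direct pathway that raises cAMP, was at 3.07 ± 0.698 FPKM (SD, n = 3) in the C_W group and 13.99 ± 13.03 in the MS_W group. The FPKM of Drd1 was 3.85, 2.51 and 2.85 in C_W1, C_W64 and C_W70, and 7.26, 12.04 and 0.0807 in C_O15, C_O30 and C_O72. Among the stressed mice it was 15.8, 26.00 and 0.144 in MS_W31, MS_W75 and MS_W95, and 15.7, 9.74 and 6.69 in MS_O13, MS_O46 and MS_O78. The stressed mice on water thus held both the highest values (MS_W75, then MS_W31) and one of the 2 lowest, and C_O72 and MS_W95 were far below every other library. The log2 fold change (log2FC, MS_W minus C_W on the log2(FPKM + 1) scale) was 1.00 ± 1.14 (SE) with an adjusted p of 0.74, and 2.40 ± 0.35 with an adjusted p of 0.0168 over the 10 libraries (limma).

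Tac1 (ENSMUSG00000061762, chr6:7554879-7562977, plus strand) encodes the precursor of substance P and neurokinin A. The FPKM of Tac1 was 4.73, 2.65 and 4.83 in C_W1, C_W64 and C_W70, and 6.85, 15.2 and 2.94 in C_O15, C_O30 and C_O72. With stress it reached 19.6, 36.5 and 5.59 in MS_W31, MS_W75 and MS_W95, and 16.02, 17.03 and 13.8 in MS_O13, MS_O46 and MS_O78. Every MS_W library was above every C_W library, with means of 20.6 ± 15.5 and 4.07 ± 1.23 (SD, n = 3), and the 3 MS_O libraries were close together and also above all C_W libraries. C_W vs MS_W gave a log2FC of 1.80 ± 0.61, an unadjusted p of 0.0138 and an adjusted p of 0.358. Unlike Drd1, Tac1 in C_O72 and MS_W95 stayed within the range of the C_W libraries or just above it.

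Isl1 (ENSMUSG00000042258, chr13:116298281-116309689, minus strand), a LIM homeodomain factor needed for the direct class to form and also present in striatal cholinergic interneurons, was the lowest of the 9. The FPKM of Isl1 was 0.108, 0.0001 and 0.216 in C_W1, C_W64 and C_W70, and 0.255, 0.610 and 0.317 in C_O15, C_O30 and C_O72. The stressed mice had 1.97, 2.54 and 0.109 in MS_W31, MS_W75 and MS_W95, and 0.214, 1.04 and 0.273 in MS_O13, MS_O46 and MS_O78. C_W64 had 0 estimated counts and is listed at the floor of the table, 8 libraries had between 31 and 154, and MS_O46, MS_W31 and MS_W75 had 266, 504 and 586. MS_W31 and MS_W75 stood clear of the rest, while MS_W95 lay among the C_W libraries, so the groups overlapped. The log2FC in C_W vs MS_W was 1.04 ± 0.37 (adjusted p = 0.383) and 1.55 ± 0.23 over the 10 libraries (adjusted p = 0.0175).

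Drd2 (ENSMUSG00000032259, chr9:49340627-49408177, plus strand), the dopamine receptor of the indirect pathway that lowers cAMP, had group means of 2.27 ± 1.91 (C_W), 8.54 ± 4.67 (C_O), 19.8 ± 15.2 (MS_W) and 12.05 ± 7.95 FPKM (MS_O; SD, n = 3). The FPKM of Drd2 was 4.35, 0.602 and 1.87 in C_W1, C_W64 and C_W70, and 9.41, 12.7 and 3.50 in C_O15, C_O30 and C_O72. Under stress the values were 24.4, 32.2 and 2.90 in MS_W31, MS_W75 and MS_W95, and 21.2, 7.79 and 7.13 in MS_O13, MS_O46 and MS_O78. MS_W75 and MS_W31 were the highest, and MS_W95 fell between C_W1 and C_W70, so the C_W and MS_W groups overlapped. C_W64 was the lowest library, below C_O72 and MS_W95. The ratio of mean FPKM, MS_W over C_W, was 8.73, and the log2FC of 2.35 ± 0.80 had an unadjusted p of 0.0142 and an adjusted p of 0.358.

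Adora2a (ENSMUSG00000020178, chr10:75316877-75334784, plus strand), the adenosine receptor that opposes Drd2 in the same cells, was close to Drd2 in level in most libraries. The FPKM of Adora2a was 3.97, 0.764 and 1.69 in C_W1, C_W64 and C_W70, and 7.79, 13.5 and 0.851 in C_O15, C_O30 and C_O72. In the stressed mice the receptor was at 22.9, 33.1 and 0.461 in MS_W31, MS_W75 and MS_W95, and 20.2, 12.6 and 9.22 in MS_O13, MS_O46 and MS_O78. MS_W31 and MS_W75 exceeded all others and MS_W95 was below all others, so that the fold between the highest and lowest MS_W mouse was 71.8. Gpr6 (ENSMUSG00000046922, chr10:41069977-41072285, minus strand), an orphan receptor of the indirect class that raises cAMP without a known ligand, followed it at a lower level. The FPKM of Gpr6 was 2.19, 0.394 and 0.774 in C_W1, C_W64 and C_W70, and 4.19, 5.65 and 0.0001 in C_O15, C_O30 and C_O72. Stressed mice were at 12.2, 17.6 and 0.454 in MS_W31, MS_W75 and MS_W95, and 10.1, 4.67 and 3.58 in MS_O13, MS_O46 and MS_O78. C_O72 had 0 estimated counts of Gpr6 and is listed at the floor, and MS_W95 lay between C_W64 and C_W70, so for neither gene did MS_W stay clear of C_W. The log2FC in C_W vs MS_W was 1.89 ± 1.10 for Adora2a and 1.83 ± 0.95 for Gpr6 (adjusted p = 0.559 and 0.522), and 3.32 ± 0.45 and 2.98 ± 0.43 over the 10 libraries (adjusted p = 0.0134 and 0.0167).

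Ppp1r1b (ENSMUSG00000061718, chr11:98348404-98357796, plus strand) was the most abundant of the 9, at 40.99 ± 16.4 FPKM in the C_W group and 162 ± 103 in the MS_W group (SD, n = 3). The FPKM of Ppp1r1b was 59.9, 33.1 and 30.00 in C_W1, C_W64 and C_W70, and 87.9, 141 and 40.98 in C_O15, C_O30 and C_O72. After CUMS the FPKM was 170.1, 261 and 54.4 in MS_W31, MS_W75 and MS_W95, and 192, 97.6 and 76.8 in MS_O13, MS_O46 and MS_O78. MS_W75, MS_O13 and MS_W31 were the highest, and MS_W95 lay within the C_W range, so the groups overlapped. Its log2FC in C_W vs MS_W was 1.76 ± 0.61 (unadjusted p = 0.0159, adjusted p = 0.366).

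Rarb (ENSMUSG00000017491, chr14:16430839-16575827, minus strand), a retinoic acid receptor that the striatum makes in quantity, had the smallest spread of the 9 over the 10 libraries, with an SD of 1.01 in log2 FPKM. The FPKM of Rarb was 1.13, 0.812 and 1.00 in C_W1, C_W64 and C_W70, and 1.57, 2.96 and 1.06 in C_O15, C_O30 and C_O72. CUMS mice had 4.12, 7.46 and 0.979 in MS_W31, MS_W75 and MS_W95, and 3.76, 2.50 and 2.05 in MS_O13, MS_O46 and MS_O78. The C_W libraries were close together (0.982 ± 0.161, SD, n = 3), and C_O72 and MS_W95 lay among them. Its log2FC in C_W vs MS_W was 1.16 ± 0.44 (unadjusted p = 0.0256, adjusted p = 0.421).

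Syndig1l (ENSMUSG00000071234, chr12:84677277-84698831, minus strand), which encodes a membrane protein enriched in the caudate and putamen, had the smallest adjusted p of the 9. The FPKM of Syndig1l was 4.56, 1.61 and 1.25 in C_W1, C_W64 and C_W70, and 9.06, 11.3 and 8.80 in C_O15, C_O30 and C_O72. In mice with CUMS it was 20.4, 25.5 and 11.7 in MS_W31, MS_W75 and MS_W95, and 20.4, 11.5 and 12.01 in MS_O13, MS_O46 and MS_O78. All 9 libraries of the C_O, MS_W and MS_O groups were above all 3 C_W libraries, and C_O72 was just below C_O15 while MS_W95 was well below MS_W31. The log2FC in C_W vs MS_W was 2.59 ± 0.37, with an unadjusted p of 2.83e-05, an adjusted p of 0.0606 and a two-sided exact permutation p of 0.1, the smallest that 3 against 3 mice allow. Ppp1r1b, Rarb and Syndig1l overlap exons of other genes on the opposite strand, and whether the counting used strand is not given in the sources used here.

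MS_W75 was the highest library for all 9 genes, and MS_W31, MS_W75 and MS_O13 were the 3 highest for 7 of them. By group mean the order was MS_W, MS_O, C_O and C_W for all 9, over the 12 and over the 10 libraries. No step between neighbours in that order (MS_W to MS_O, MS_O to C_O, C_O to C_W) passed an adjusted p of 0.05 in limma for any of the 9, over the 12 or the 10 libraries. Every MS_O library was above every C_W library for 8 of the 9 (all but Isl1), where 11.2% of the tested genes had that order.

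Compared to the C_W group, 6 of the 9 genes in the MS_W group met the criterion for differentially expressed genes (DEGs), an unadjusted p under 0.05 with an absolute log2 ratio of group means above 1. These were Drd2, Ppp1r1b, Tac1, Rarb, Isl1 and Syndig1l, all higher in MS_W, where 2.50% of the tested genes were higher DEGs. None of the 9 passed an adjusted p of 0.05 in limma or in edgeR, and 3 did in DESeq2 (Drd2, Tac1 and Syndig1l). In limma 1 gene of the 21393 passed in that direction (0.00467%). This share does not apply to DESeq2, which passed more of all genes, as counted below with the other settings. The groups did not overlap for Tac1 and Syndig1l, against 16.3% of all tested genes. The median log2FC of the 9 was 1.80, and that of all tested genes was 0.06. The count of DEGs depended on single mice. It was 1 (Syndig1l) without MS_W75, 2 (Syndig1l and Tac1) without MS_W31, 3 without C_W64, 4 without C_W70 and 9 without MS_W95.

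Over the 10 libraries all 9 genes rose in MS_W31 and MS_W75 against the C_W mice, at adjusted p between 0.0115 (Syndig1l) and 0.0421 (Ppp1r1b), where 1.05% of the 21171 tested genes did. Log2FC ran from 1.55 for Isl1 to 3.32 for Drd2, with 3.32 for Adora2a and a median of 2.49 beside 0.05 for all tested genes. As ratios of mean FPKM, MS_W31 and MS_W75 over C_W, this was 5.26 for Ppp1r1b, 5.90 for Rarb, 6.81 for Drd1, 6.90 for Tac1, 9.28 for Syndig1l, 12.5 for Drd2, 13.1 for Adora2a and 13.3 for Gpr6, and 20.9 for Isl1, whose C_W level rests on few counts. Differences between genes were not tested. No member overlapped between the groups, and 25.3% of the tested genes were higher without overlap.

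On krill oil, no member met the DEG criterion in C_O vs MS_O, where 2.82% of the tested genes were higher and 0.753% were lower DEGs. No member reached it in edgeR or DESeq2 either, nor an unadjusted p under 0.05 in limma, which 6.69% of the genes had in the higher direction. Log2FC, MS_O minus C_O, ran from 0.08 ± 0.37 for Isl1 to 1.21 ± 1.10 for Adora2a, with adjusted p of 0.634 (Tac1) or more. Without C_O72 and MS_W95, the log2FC of Drd1 went from 1.19 to 0.10 ± 0.35 and that of Adora2a to 0.34 ± 0.45, and Drd2 changed sign to -0.03 ± 0.54. Syndig1l alone did not overlap between C_O and MS_O (8.90% of tested genes), at a log2FC of 0.51 ± 0.37 (adjusted p = 0.703).

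Without stress, Syndig1l was the 1 member that met the DEG criterion in C_W vs C_O (0.865% of the tested genes were higher DEGs), at 9.71 ± 1.36 FPKM in C_O against 2.47 ± 1.82 in C_W (SD, n = 3). Its log2FC was 1.74 ± 0.37 with an unadjusted p of 7.27e-04 and an adjusted p of 0.908, and no gene of the table passed the adjusted threshold (324 higher and 436 lower genes had an unadjusted p under 0.05). DESeq2 on the estimated counts put 54 genes past the adjusted threshold, Syndig1l among them. C_W and C_O did not overlap for Syndig1l and Isl1 (4.08% of tested genes). With C_O72 left out, C_O15 and C_O30 were above all C_W mice for all 9 genes, an order that 8.38% of the genes had over the 10 libraries. There 8 members met the DEG criterion (all but Isl1, against 0.789% of genes), with log2FC from 0.69 ± 0.27 for Rarb to 2.04 ± 0.54 for Drd2 and no adjusted p below 0.813.

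Under stress, no member met the DEG criterion in MS_W vs MS_O over the 12 libraries, where 1.39% of the tested genes were lower DEGs. None did in edgeR or DESeq2, and none had an unadjusted p under 0.05 in limma, which 3.46% of the genes had in the lower direction. Log2FC, MS_O minus MS_W, lay between -0.63 ± 0.37 for Isl1 and 0.47 ± 1.14 for Drd1, and only Drd1 and Adora2a were above 0. Over the 10 libraries all 9 values were below 0, from -1.32 ± 0.54 for Drd2 to -0.65 ± 0.38 for Syndig1l. There MS_O lay below MS_W31 and MS_W75 without overlap for 7 of the 9 (for Ppp1r1b and Syndig1l, MS_O13 reached the level of MS_W31), against 13.1% of tested genes. Drd2, Gpr6, Isl1 and Rarb met the DEG criterion there (1.90% of genes), and the smallest adjusted p was 0.122 for Isl1.

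The difference of the CUMS effect between oil and water, (MS_O − C_O) − (MS_W − C_W), was tested as an interaction. It was farthest from 0 for Syndig1l over the 12 libraries, at -2.09 ± 0.52 (unadjusted p = 0.00227, adjusted p = 0.534), and lay between -1.92 ± 1.13 (Drd2) and 0.19 ± 1.61 (Drd1) for the others. No gene of the table passed the adjusted threshold, and 770 higher and 776 lower ones (3.63%) had an unadjusted p under 0.05. Over the 10 libraries all 9 had an unadjusted p under 0.05 in the same direction, which 4.27% of genes had, with values from -3.36 ± 0.76 (Drd2) to -1.51 ± 0.32 (Isl1). Their adjusted p lay between 0.214 and 0.344, and 29 genes passed in that direction (0.137%). The 4 comparisons share groups, so their values are not independent of each other.

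**Figure D1:**
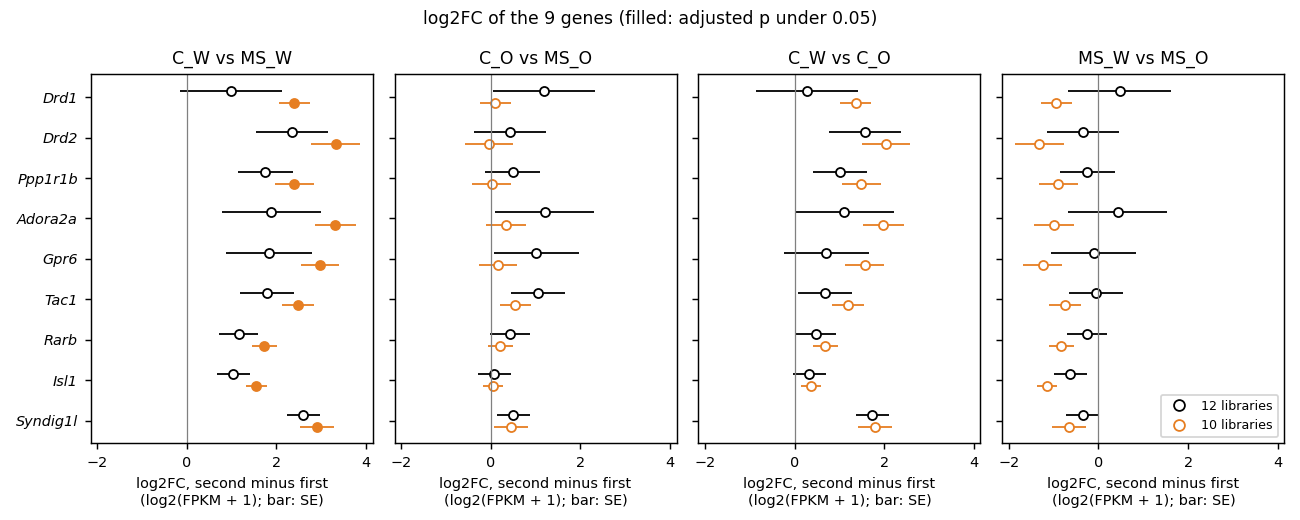
Log2FC of the 9 genes (second group minus first, log2(FPKM + 1) scale) in the 4 comparisons, with SE bars, over 12 libraries (black) and over 10 without C_O72 and MS_W95 (orange); filled points have an adjusted p under 0.05 (limma). Only the orange points of C_W vs MS_W are filled, and in MS_W vs MS_O the points of Drd1 and Adora2a cross to below 0 when the 2 libraries are left out, where the other 7 already were.

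Ratios within a library compared the members with each other. In the 10 libraries the log2 ratio of Drd1 to Ppp1r1b lay between -3.96 and -3.32 with an SD of 0.20, while the log2 level of Drd1 itself had an SD of 1.13. Gpr6 and Adora2a kept a close relation to Drd2, with SDs of 0.20 and 0.30 for the ratio against 1.72 and 1.73 for the levels. The ratio between genes of the 2 classes varied more, with an SD of 0.78 for Drd1 to Drd2 and 0.70 for Adora2a to Drd1. The log2 ratio of Drd1 to Drd2 was between -0.63 (MS_W31) and 0.61 (C_W70) in 9 of the 10 libraries and 2.06 in C_W64, where Drd2, Adora2a and Gpr6 were all low. Tac1, beside the enkephalin gene Penk of the indirect class, had a log2 ratio to it between -4.29 and -3.01. Against Ppp1r1b, the SD of the log2 ratio was 0.84 for Drd2, 0.78 for Adora2a and 0.75 for Gpr6. It was 0.59 for Syndig1l, 0.49 for Tac1, 0.29 for Rarb and 1.20 for Isl1 (n = 9 libraries). The mean log2 ratio of Drd2 to Ppp1r1b was -4.52 in C_W and -2.91 in MS_W31 and MS_W75. That of Drd1 to Ppp1r1b was -3.69 and -3.38.

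C_O72 and MS_W95 broke these relations for some members and not for others. The log2 ratio of Drd1 to Ppp1r1b was -8.99 and -8.56 in these 2 libraries, far below the lowest of the other 10. That of Adora2a to Ppp1r1b was -5.59 and -6.88, beside -5.44 in C_W64, the lowest of the other 10. Those of Tac1 (-3.80 and -3.28) and Rarb (-5.27 and -5.80) were within or near the range of the other 10. Syndig1l was higher against Ppp1r1b in both (-2.22 and -2.22) than in any other library, where the highest was -2.68. As levels, MS_W75 exceeded MS_W95 by 180.5-fold for Drd1, 71.8-fold for Adora2a and 38.7-fold for Gpr6, but by 4.79-fold for Ppp1r1b and 2.18-fold for Syndig1l. Chrm4, the M4 muscarinic receptor of the direct class, was at 0.654 and 0.461 FPKM in these 2 libraries and between 12.8 and 23.03 in the others.

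**Figure D2:**
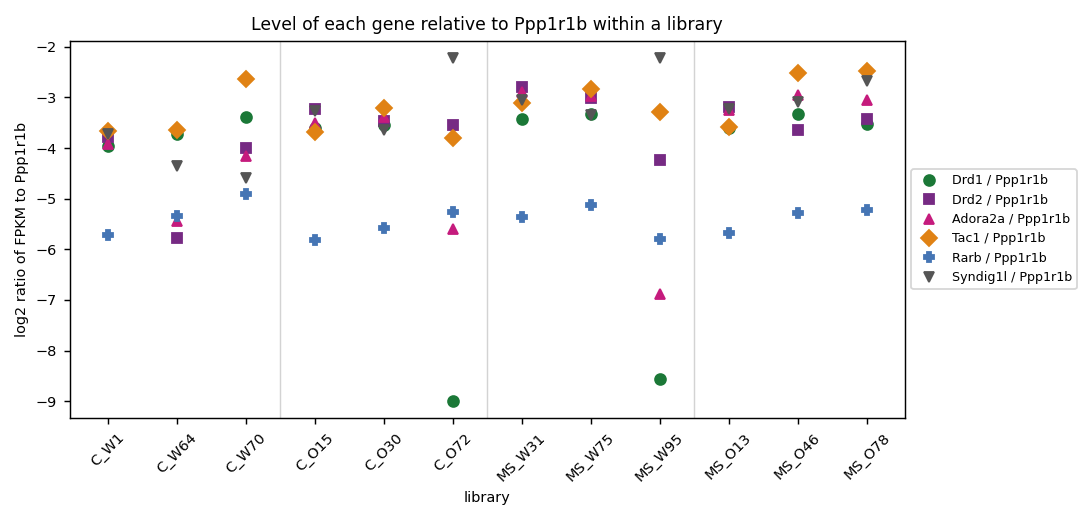
Log2 ratio of FPKM of 6 members to Ppp1r1b in each library, with vertical lines between the groups. Drd1 falls to -8.99 and -8.56 in C_O72 and MS_W95, where Rarb and Tac1 stay near their level in the other libraries.

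The genes most like the 9 were ranked by Pearson r of log2(FPKM + 1) over the 12 libraries with the mean of the 9 scaled members, among the 13613 other genes whose mean FPKM reached 1. Since C_O72 and MS_W95 stood apart, r over the other 10 is given beside it. These values describe the libraries and carry no test, since the genes of a library share its depth and its tissue sample. Sh3rf2 came first (r = 0.99 over 12 and 0.99 over 10), followed by Serpina9 (0.98 and 0.98), Rgs9 (0.97 and 0.99) and Adcy5 (0.97 and 0.99). Rgs9 encodes a regulator of G protein signaling and Adcy5 the main adenylyl cyclase of the striatum. B3gnt2, Rcn1, Rem2, Rxrg, Six3 and Ddost made up the first 10, with r from 0.95 to 0.97. Of the 10, 5 were in the lists of other striatal projection neuron genes (Sh3rf2, Rgs9, Adcy5, Rxrg and Six3). Those lists hold 5, 4 and 26 genes and were chosen with earlier results of these libraries known, so this count is a description only.

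Rgs9 had an FPKM of 1.65 to 3.90 in C_W, 16.9 and 28.6 in MS_W31 and MS_W75, and 1.03 and 1.39 in C_O72 and MS_W95. Adcy5 ran from 12.9 in MS_W95 to 83.4 in MS_W75. Within the 9, r with the mean of the other 8 was 0.78 for Isl1, 0.78 for Syndig1l, 0.86 for Drd1 and at least 0.95 for the rest. Over the 10 libraries it was 0.78 for Isl1 and at least 0.95 for the others. The most opposite genes were Neu1 (a lysosomal sialidase, r = -0.87), Hba-a2 (an alpha globin, -0.87) and 4933427D14Rik (-0.87). Hba-a2 ran from 2.26 FPKM in MS_W75 to 107 in MS_W95, and it has a near-identical copy that can share its reads.

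**Figure D3:**
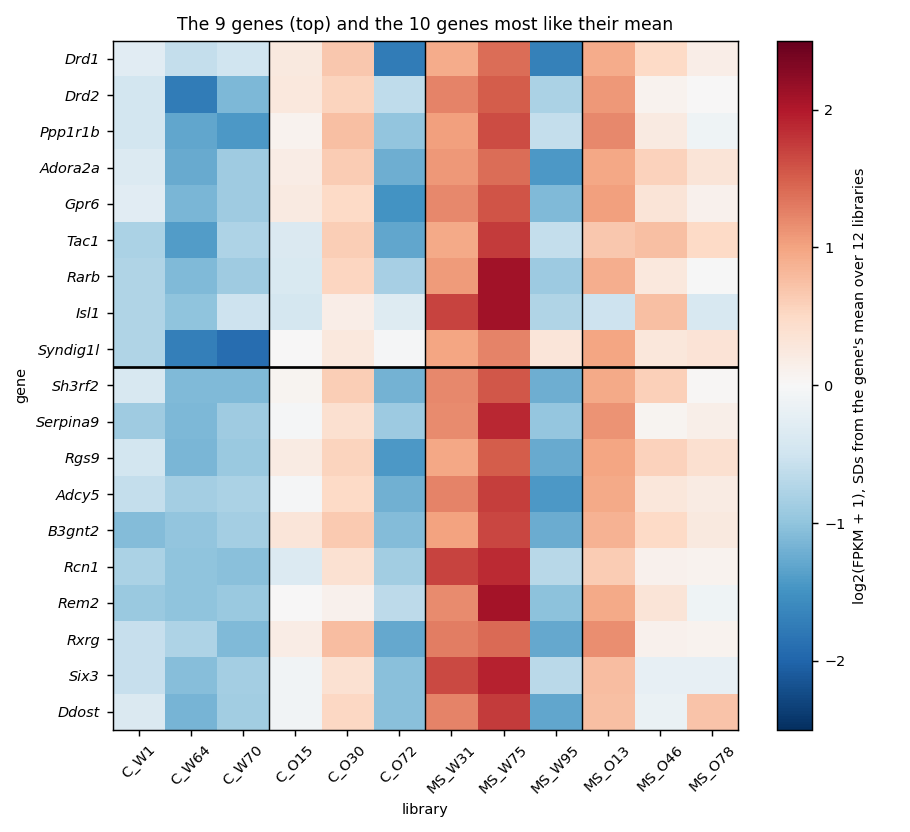
Log2(FPKM + 1) of the 9 genes (above the line) and of the 10 genes most like their mean (below it) in the 12 libraries, as SDs from each gene's mean; vertical lines divide the groups. MS_W31, MS_W75 and MS_O13 are red in nearly all rows, and the C_W libraries, C_O72 and MS_W95 are blue in most.

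Other genes of projection neurons were counted in lists. These lists were chosen with earlier results of these libraries known. Of 26 genes that both classes share, 22 had a log2FC above 0 in C_W vs MS_W, 6 were higher DEGs (Gnal, Gprin3, Pde10a, Rasgrp2, Six3 and Zfp503) and none a lower DEG, and their median log2FC was 0.70 beside 0.06 for all tested genes. Among all tested genes, 2.50% were higher and 2.10% were lower DEGs. The largest values were those of Pde10a (1.83 ± 0.78), a phosphodiesterase of these neurons, Rgs9 (1.64 ± 0.88), Rxrg (1.53 ± 0.84), a retinoid X receptor, and Six3 (1.50 ± 0.52). Over the 10 libraries 15 of the 26 rose at an adjusted p under 0.05 and none fell, where 1.05% of all tested genes rose and 0.128% fell. Of 4 other indirect pathway genes, Penk was a higher DEG over the 12 libraries (log2FC 2.13 ± 0.55, adjusted p = 0.278), and Gpr52 (0.86 ± 0.71) and Sp9 (0.08 ± 0.61) were not. Over the 10 libraries 3 of the 4 were higher DEGs, beside 3.42% of all tested genes. Penk and Gpr52 passed an adjusted p of 0.05 there (limma), beside 1.05% of all tested genes. None of 5 other direct pathway genes was a DEG over the 12 libraries, and 2 were higher DEGs over the 10. Pdyn, the prodynorphin gene, had a log2FC of 0.63 ± 0.85 over the 12 libraries and 1.80 ± 0.28 over the 10 (adjusted p = 0.0257), and Chrm4 had -0.80 ± 1.07 and 0.49 ± 0.13.

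Signaling genes that these receptors share with other neurons were counted in the same way. Of 30 genes for the cAMP, protein kinase A and phosphatase steps around DARPP-32, none was a DEG in C_W vs MS_W (3 higher and 2 lower genes had an unadjusted p under 0.05), 14 had a log2FC above 0 and the median was -0.07. For all tested genes these shares were 2.50% higher and 2.10% lower DEGs, and 6.71% higher and 3.79% lower at an unadjusted p under 0.05. The values farthest from 0 were those of Adcy1 (-0.91 ± 0.53), Arpp19 (-0.82 ± 0.62), Creb1 (-0.81 ± 0.49) and Adcy2 (-0.78 ± 0.35). Over the 10 libraries 1 of the 30 passed the adjusted threshold, Ppp2r5d, a phosphatase subunit, at 0.48 ± 0.09 (named after its value was seen). In that direction 1.05% of all tested genes passed over the 10 libraries. Of the other dopamine and adenosine receptors, 5 of 6 were tested and none was a DEG over the 12 libraries, with Adora1, the A1 adenosine receptor, at -0.44 ± 0.19. Over the 10 libraries Drd3 was a higher DEG (3.42% of all tested genes were), and none of these receptors passed the adjusted threshold. Drd3 was at 0.544 and 1.05 FPKM in MS_W31 and MS_W75 and at most 0.169 in C_W. Of 15 retinoid genes tested, Crabp1, a retinoic acid binding protein, was a higher DEG (1.22 ± 0.51) and Rbp4, a retinol carrier, a lower one (-0.99 ± 0.36), and the median was 0.18. Among 3 tested tachykinin partners, the receptor genes Tacr1 (1.11 ± 0.30) and Tacr3 (1.22 ± 0.21) were higher DEGs and the peptide gene Tac2 (-0.07 ± 0.78) was not. Tacr3 and the genes named here by their DEG count were named after their values were seen.

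Markers of other regions differed between the same libraries. The summed FPKM of 8 cortex markers was 426 to 466 in C_W, 395 and 445 in C_O15 and C_O30, 261 to 317 in MS_O, 174 and 171 in MS_W31 and MS_W75, and 143 and 79.2 in C_O72 and MS_W95. This sum was lower in every MS_W than in every C_W mouse, and 5 of the 8 genes were lower DEGs (2.10% of all tested genes were), Fezf2 (-2.54 ± 0.96), Neurod6 (-2.18 ± 0.85), Slc17a7 (-1.82 ± 0.71), Lamp5 and Rorb. The sum of 12 hypothalamus markers was 129.7 and 119 in MS_W31 and MS_W75, 12.7 to 58.5 in MS_O and at most 21.2 in the other 7 libraries. In MS_O most of this sum was Trh, at 8.84, 37.4 and 53.0 FPKM in MS_O13, MS_O46 and MS_O78. In these 3 libraries Avp was at 1.49, 0.916 and 2.10, and Oxt at 0.592, 0.272 and 0.721. Of the 11 tested hypothalamus genes 7 were higher DEGs in C_W vs MS_W, beside 2.50% of all tested genes, with Avp (log2FC 3.57 ± 1.20) and Oxt (3.03 ± 1.01) in the lead. MS_W31 and MS_W75 thus had the most hypothalamic and, C_O72 and MS_W95 aside, the least cortical marker RNA. The summed level of the 9 genes was 291.5 and 442 in these mice, and MS_O13 reached 300.1 with a cortex sum of 317 and a hypothalamus sum of 12.7. Olfactory bulb markers followed another order, with sums over 8 genes of 282 and 294 in MS_O46 and MS_O78 and 49.9 in MS_O13, against 8.69 to 35.3 in C_O. In C_O vs MS_O, 7 of these 8 were higher DEGs (2.82% of all tested genes), with a median log2FC of 2.55. Fezf2, a defining gene of deep cortical neurons, was at 0.0419 and 0.0177 FPKM in C_O72 and MS_W95. The part of the tissue sampled in each library as a source of the differences in the 9 genes was not tested.

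**Figure D4:**
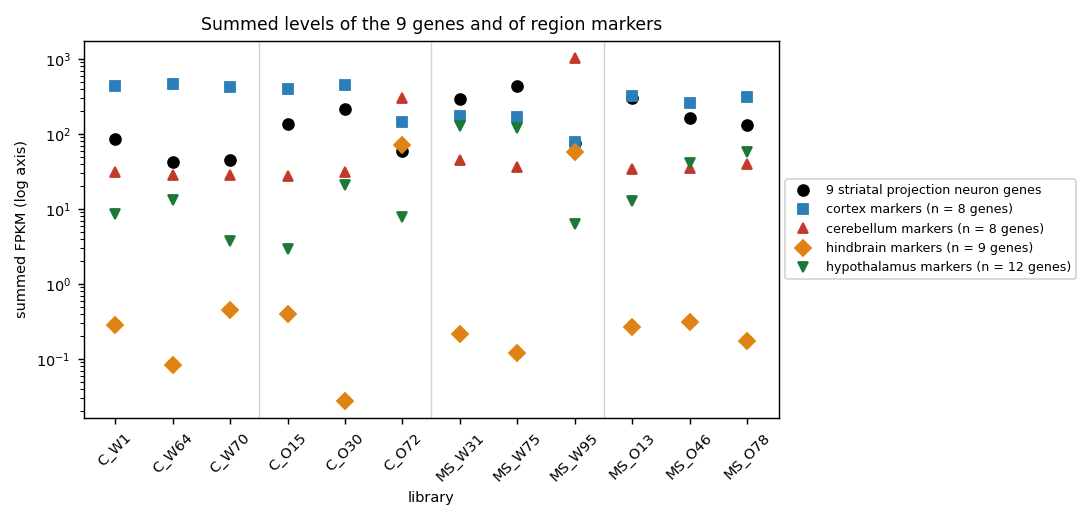
Summed FPKM (log axis) of the 9 genes and of marker lists for cortex, cerebellum, hindbrain and hypothalamus in each of the 12 libraries, with vertical lines between groups. Hindbrain and cerebellum markers are high in C_O72 and MS_W95 only, and hypothalamus markers are highest in MS_W31 and MS_W75.

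Cholinergic markers bear on Isl1, which cholinergic interneurons of the striatum also make. Of 6 such genes, 5 were higher DEGs in C_W vs MS_W (Chat, Gbx2, Lhx8, Slc18a3 and Slc5a7), beside 2.50% of all tested genes, with a log2FC of 1.44 ± 0.32 for Chat, the enzyme that makes acetylcholine. Lhx8, a factor of forebrain cholinergic neurons, had an FPKM of 3.08 and 3.99 in MS_W31 and MS_W75 and at most 0.656 (C_O30) in the other libraries, and it is listed at the floor in C_W64, C_O72 and MS_W95. Chat was at 3.26 and 1.53 in C_O72 and MS_W95, whose hindbrain markers are given above. The summed level of the 6 was 0.472 to 1.31 in C_W, 9.74 to 14.3 in MS_W, 2.21 to 3.10 in MS_O and up to 22.8 in C_O (C_O72). Its part in the Isl1 values was not tested.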

How the data were processed

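Poly(A) RNA of 12 mouse brains was sequenced, with 1 library per mouse and 3 mice in each of 4 groups. The p-values thus rest on the spread between these libraries, which also differed in their regional markers. Per the labels, the authors trimmed reads with cutadapt 1.9, aligned them with HISAT2 2.0.4 to mm10 and used StringTie 1.3.4d, and the methods name Ballgown for the values. The deposited table gives an FPKM and an estimated count per gene and library. A gene without an estimate is listed at an FPKM of 0.0001. The deposited estimated counts are whole numbers but equal FPKM times length times 1 factor per library within 0.0186% (median), so they are computed from coverage. Library totals of 50912906 to 75678721 counts set the precision, which is lowest for Isl1.

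The 21393 genes whose mean FPKM reached 0.1 were tested on log2(FPKM + 1) in 1 limma 3.58.1 fit of the 4 groups (R 4.3.3), with Benjamini-Hochberg adjustment. A fold change on this scale understates the change of low genes. The DEG criterion required p below 0.05 without adjustment and a log2 ratio of mean FPKM beyond 1 in either direction. Single values of 3 against 3 mice used a two-sided exact permutation test, whose smallest p is 0.1. Other pseudocounts, filters, normalizations, edgeR 4.0.16 and DESeq2 1.42.0 on the estimated counts, and leaving out libraries were tried as alternatives, and the tests were tested on simulated data. Promoter sequences came from RefSeq (GRCm38.p6).

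Named were the 9 genes, the genes of each list called at an adjusted p under 0.05 or otherwise up to 4 with the largest changes in C_W vs MS_W at a mean FPKM of at least 1, the 10 genes most like the 9 and the 3 least like them, and marker genes beside a result. The members and all lists were chosen with earlier results of these data known.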

Additional observations from a re-analysis of the deposited data

How the results depend on the processing

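No paired analysis was possible because the groups share no mouse numbers. Quantile normalization, median centring and robust eBayes left the direction of all 9 genes in C_W vs MS_W as it was, and so did the other settings tried. The limits include 3 mice a group, other regional markers in C_O72 and MS_W95, and low counts for Isl1. The causes of the differences below were not tested.

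In C_W vs MS_W, DEGs over all genes (983) became 1559 with no filter and 366 at a mean FPKM of at least 1. Genes at an adjusted p under 0.05 (1) became 5 with no filter, 121 with only the 2 groups fitted, 389 in DESeq2 and 250 without C_O72 and MS_W95, and the members among them (0) became 3 in DESeq2 and 9 without C_O72 and MS_W95. In C_O vs MS_O, DEGs (764) became 1245 with no filter and 299 at a mean FPKM of at least 1, genes past the adjusted threshold (1) became 2 with only 2 groups, 172 in DESeq2 and 3 without C_O72 and MS_W95, and Drd2 (0.44) became -0.034 without C_O72 and MS_W95. In C_W vs C_O, DEGs (377) became 839 and 122 under the 2 filters and 599 in DESeq2, and genes past the adjusted threshold (0) became 2 with no filter, 54 in DESeq2 (1 member) and 1 without C_O72 and MS_W95. Member DEGs (1) became 3 with only 2 groups, 2 in DESeq2 and 8 without C_O72 and MS_W95, Drd1 (0.28) became -0.30 and -0.60 with pseudocounts of 0.1 and 0.01, and Gpr6 (0.71) became -0.51 with 0.01.

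In MS_W vs MS_O, DEGs (602) became 1146 and 153 under the 2 filters, and genes past the adjusted threshold (1) became 3 with no filter, 12 with only 2 groups, 79 in DESeq2 and 57 without C_O72 and MS_W95, with 4 member DEGs there. Adora2a (0.43) became -0.40 in edgeR and DESeq2 and -0.99 without C_O72 and MS_W95, Drd1 (0.47) became -0.36 in both tools and -0.94, and Gpr6 (-0.10) became 0.19 and 0.26 with pseudocounts of 0.1 and 0.01. For the interaction, genes past the adjusted threshold (0) became 1 with no filter, 151 in DESeq2 and 31 without C_O72 and MS_W95, Drd1 (0.19) became -1.46 in both tools and -2.30, and Gpr6 (-0.81) became 0.77 with a pseudocount of 0.01. Each other ranking of likeness shared 4 of the first 10 genes.

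With each mouse left out in turn, C_W vs MS_W gave 0 to 98 genes past the adjusted threshold, 0 to 2 members past it and 1 to 9 member DEGs. C_O vs MS_O gave 1 to 112 such genes, 463 to 1251 DEGs, 0 to 1 member DEGs, Drd2 from -0.034 to 0.77 and Isl1 from -0.16 to 0.22. C_W vs C_O gave 0 to 4 genes, 253 to 892 DEGs, 1 to 3 member DEGs and Drd1 from -0.43 to 1.36. MS_W vs MS_O gave 1 to 33 genes, 462 to 940 DEGs and 0 to 2 member DEGs, with Drd1 from -0.94 to 1.34, Drd2 from -1.32 to 0.23, Ppp1r1b from -0.89 to 0.23, Adora2a from -0.99 to 1.28, Gpr6 from -1.25 to 0.59, Tac1 from -0.75 to 0.51 and Rarb from -0.83 to 0.22, lowest without MS_W95 and highest without MS_W75. The interaction gave 0 to 20 genes, Drd1 from -1.21 to 1.07 and Adora2a from -2.10 to 0.17.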

Other observations

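Genes of the cells that contact striatal projection neurons were described in the same libraries. Of 6 genes of striatal GABAergic interneurons, 1 was a higher DEG in C_W vs MS_W, Nos1 (log2FC 1.46 ± 0.42, SE), the neuronal nitric oxide synthase. Among all tested genes, 2.50% were higher DEGs. Nos1 was at 4.50, 3.42 and 12.1 FPKM in MS_W31, MS_W75 and MS_W95. Pthlh, a gene of parvalbumin interneurons, had a log2FC of 0.51 ± 0.13, and the neuropeptide genes Npy and Sst had -1.47 ± 0.94 and -0.54 ± 0.58. Npy was at 99.8, 88.7 and 14.2 FPKM in MS_W31, MS_W75 and MS_W95, beside 133 to 148 in C_W. Sst was at 265, 259 and 59.7 in the same MS_W libraries, beside 205 to 265 in C_W, so only MS_W95 was below the C_W range. Among genes of midbrain dopamine neurons, whose axons reach the striatum, 6 of 8 were tested. En1, a midbrain factor, is listed at the floor in all libraries but C_O72 and MS_W95 and entered the test through these alone. Ddc, which completes dopamine synthesis, was a higher DEG (1.19 ± 0.44). Slc18a2, the vesicular monoamine transporter, had 0.93 ± 0.44 and Th, the rate-limiting enzyme and also an olfactory bulb marker, 0.83 ± 0.78. In MS_W31, MS_W75 and MS_W95, Ddc was at 2.73, 3.19 and 8.81 FPKM and Slc18a2 at 1.08, 1.07 and 6.46. MS_W95, which held hindbrain markers, was thus the highest MS_W library for Nos1, Ddc and Slc18a2. None of these genes passed an adjusted p of 0.05 (limma) over the 12 libraries.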
